A study of Homo sapiens with 5 samples.

Results

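The genes for the proteins of the mitochondrial ribosome were followed in 5 clones of Nalm6, a line of leukaemic B-cell precursors. A nonsense short hairpin RNA (control shRNA) was expressed in 2 clones, and a hairpin against MondoA in 3. MondoA is the glucose-responsive transcription factor encoded by MLXIP. Each clone gave 1 Affymetrix whole-transcript array. All clones were kept in the same medium with 20% serum and 200 mg/dl glucose, so the hairpin was the only factor that the labels vary. Nothing in the labels says how many integrations or hairpin sequences the clones represent, and a clone can differ from another clone by more than its hairpin. Values are RMA (robust multi-array average) expression on the log2 scale, where 1 unit is a doubling, and they compare 1 probe set between arrays, never the levels of different genes.

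The genes were taken by name. A probe set was used when the platform annotation gave it exactly 1 symbol and that symbol began with MRPL (large subunit) or MRPS (small subunit) followed by a digit. Pseudogenes and genes on chromosome 18 were to be left out, which removed 1 pseudogene probe set and no gene on that chromosome. The 77 remaining probe sets stood for 73 genes of the 18417 tested, 48 of the large and 25 of the small subunit, spread over 21 chromosomes. Another 4 probe sets that carried an MRPL or MRPS symbol beside a second gene were not used.

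The mitochondrial ribosome is the particle that translates the messages of mitochondrial DNA, which encode core subunits of the respiratory chain and of the ATP synthase. Its RNAs come from the mitochondrial genome, but all of its proteins are encoded in the nucleus, made on cytosolic ribosomes and imported. Many of them descend from bacterial ribosomal proteins and others exist only in mitochondria, where they replace lost RNA or line the exit towards the inner membrane. The small subunit reads the message and the large subunit joins the amino acids, and the proteins of both are needed in fixed proportion. Promoters of nuclear genes for mitochondrial proteins often bind the ETS-family factor GABP and the factor NRF1.

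Promoter sequence is shown first because it is a feature that the choice by name did not use. A promoter window (250 bases before to 50 after the start, RefSeq, GRCh38.p14) was available for 66 of the 73 genes. The ETS core CCGGAAG, searched on both strands, was in a window of 29 of the 66 genes (43.9%), against 16.5% of 15811 protein-coding genes and 12.2% of all 27195 genes with a window. The share was 41.5% of 41 large-subunit and 48% of 25 small-subunit genes. In 19 of the 66 genes (28.8%) a core lay entirely within the 60 bases before the start, against 7.2% of protein-coding genes. CATGCGC, which is part of the NRF1 motif, was in 10.6% of the genes against 6.81% of protein-coding genes, and the E-box CACGTG, the element bound by MondoA with MLX and by MYC with MAX, was in 13.6% against 10.9%. Each motif was counted without regard to overlap with another, and a match describes the sequence without showing that a factor binds there. Median GC content was similar, 60.2% for windows of the members and 62.3% for those of protein-coding genes.

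**Figure D1:**
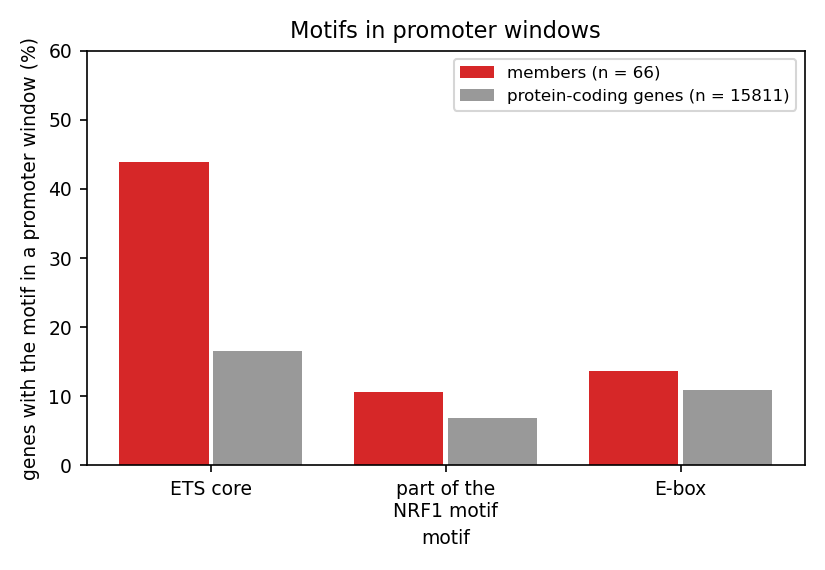
Share of genes (%) with each motif in at least 1 promoter window, for 66 mitochondrial ribosomal protein genes (red) and 15811 protein-coding genes (grey). The ETS core stands at 43.9% against 16.5%, while the other 2 motifs differ less.

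The stretches below are the 110 bases before the start of 7 genes that the expression results return to, written 5′ to 3′ along the gene's strand with the ETS core in capitals. The first 5 are the genes with a core in this stretch among the 8 that read higher in every MondoA shRNA array, and the last 2 have the largest values of MondoA shRNA array 2 minus array 1. MRPL24 and MRPS15, also among the 8, had no core in a window, and MRPL21 had no window. Holding a core was thus part of the choice of the first 5. The share of all genes with a core in such a stretch was not counted, and a link between core and expression was not tested. In MRPL20 (chr1:1407294-1407403, minus strand) the core occurs at 2 places, and in MRPL48 (chr11:73787764-73787873, plus strand) it is on the opposite strand. The others are MRPS18A (chr6:43687792-43687901, minus), MRPS10 (chr6:42217862-42217971, minus), MRPL58 (chr17:75012560-75012669, plus), MRPL3 (chr3:131502972-131503081, minus) and MRPS31 (chr13:40771191-40771300, minus).
MRPL20: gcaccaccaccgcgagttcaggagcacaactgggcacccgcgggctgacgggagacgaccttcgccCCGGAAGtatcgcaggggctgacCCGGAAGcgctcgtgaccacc
MRPL48: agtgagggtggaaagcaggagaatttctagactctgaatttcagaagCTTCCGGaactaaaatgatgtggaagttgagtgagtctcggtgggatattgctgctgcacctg
MRPS18A: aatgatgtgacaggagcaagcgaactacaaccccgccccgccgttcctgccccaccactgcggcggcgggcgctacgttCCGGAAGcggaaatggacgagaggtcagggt
MRPS10: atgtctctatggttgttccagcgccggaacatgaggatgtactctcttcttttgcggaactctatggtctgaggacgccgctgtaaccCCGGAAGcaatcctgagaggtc
MRPL58: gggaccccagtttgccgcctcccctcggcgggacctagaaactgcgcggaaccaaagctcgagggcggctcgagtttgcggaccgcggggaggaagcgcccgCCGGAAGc
MRPL3: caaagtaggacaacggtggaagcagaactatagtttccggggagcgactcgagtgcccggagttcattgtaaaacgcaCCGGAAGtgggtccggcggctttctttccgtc
MRPS31: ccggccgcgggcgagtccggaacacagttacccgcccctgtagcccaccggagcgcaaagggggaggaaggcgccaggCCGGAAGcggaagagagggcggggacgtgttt
In all but MRPL48 a core begins 8 to 44 bases before the start, and in MRPL48 it begins 63 bases before.

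Before the expression results, the clones were checked against their labels. MLXIP stood at 6.42 under control shRNA in both clones, and MondoA shRNA arrays 1, 2 and 3 gave 6.42, 6.47 and 6.29, a difference of -0.03 ± 0.06 (SE, limma adjusted p = 0.959), and 0.027 without MondoA shRNA array 3. The target message was thus not measurably lower, and the clones are called the arrays labelled MondoA shRNA. As a rough check only, since probe sets differ in brightness, all 12 measured markers of B-cell precursors had a mean level above the median gene level of 4.15 (range 4.85 to 10.4). Between the groups 5 of the 12 reached an unadjusted limma p under 0.05 (4 upward, 1 downward), against 3.73% of all genes (1.55% and 2.18%). Among the 5 were CD22 (1.27), CD79A (0.91) and DNTT (-1.19), and 0 of the 12 markers passed after adjustment (limma adjusted p = 0.833 for these 3). Their part in the results on the members was not tested. Of 12 markers of other cell types, 10 lay at or below the median gene level. CD68 (5.30) and COL1A1 (4.79) lay above it. Of the 73 members, 70 lay above the median gene level, and MRPL13, MRPL33 and MRPS33 lay below it. Detection above background was not assessed. In RNA from whole cultures, fewer cells with a message and less message per cell cannot be told apart.

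No mitochondrial ribosomal protein gene passed the test between the groups. The members read slightly higher as a set in the arrays labelled MondoA shRNA, 59 above 0 and 13 below, with a median difference of 0.07 on the log2 scale (MondoA shRNA minus control shRNA), against a median of 0.00 over all genes (9014 above and 7567 below 0) and 0.0062 over the 9208 brighter genes, those above the median level. Differences ran from -0.20 (MRPS30) to 0.51 (MRPL24), so no member differed by as much as 1 log2 unit. By array, the member median against the control mean was -0.01 in array 1, 0.26 in array 2 and 0.06 in array 3. In array 1, 37 of 73 members lay below the control mean (50.7%, against 54.8% of brighter genes). Above it lay 59 in array 2 (80.8%, against 55.0%) and 58 in array 3 (79.5%, against 47.8%). In size the shift was thus largest in array 2, while most members lay above the controls in array 3 as well. In limma 0 of 73 members passed an adjusted p under 0.05, against 0.0% of all genes. At an unadjusted p under 0.05 stood 0 of 73, against 3.73% of all genes, 1.55% higher and 2.18% lower. Without control array 1, 752 genes passed the adjusted threshold, and without control array 2, 454 did, in both cases 0 of them members. The lowest adjusted p of a member was 0.833. The median 95% interval of a member reached 0.40 to each side of its difference before any adjustment, and detection after adjustment needs larger changes.

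In 8 of 73 members (11.0%) every MondoA shRNA array lay above both controls, against 4.85% of all genes and 7.22% of brighter genes. In 2 (2.74%) every array lay below, against 5.18% and 8.36%. These shares were not particular to the members. Among 64 cytosolic ribosomal protein genes 8 lay above (12.5%) and 3 below (4.69%). Among 67 nuclear respiratory chain and ATP synthase genes 7 lay above (10.4%) and 2 below (2.99%). MRPL24, a protein at the exit of the peptide tunnel, read 7.23 and 6.94 under control shRNA (arrays 1 and 2) and 7.35, 8.05 and 7.40 under MondoA shRNA (arrays 1, 2 and 3, in this order throughout). Its difference of 0.51 ± 0.28 (SE, adjusted p = 0.833) was 0.29 without MondoA shRNA array 2. Its groups did not overlap, but the controls stood further from each other than array 1 stood from the higher control, and array 2 was the one far out. MRPL21, another large-subunit protein of bacterial origin, read 6.64 and 6.27 against 6.66, 7.15 and 6.85. MRPL48, of the central protuberance, read 6.77 and 6.64 against 6.85, 7.37 and 6.85. The groups of MRPL21 all but touched, with MondoA shRNA array 1 barely above control array 1, and in MRPL48 arrays 1 and 3 were equal. The MRPL21 difference of 0.43 was 0.24 without control array 2, and the MRPL48 difference of 0.32 was 0.14 without MondoA shRNA array 2.

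MRPL20 behaved differently among the clones. It read 7.47 and 7.35 against 7.58, 7.70 and 7.89, a difference of 0.31 ± 0.12 (SE, adjusted p = 0.833 by limma), and here array 3 was the highest. MRPS15, a small-subunit protein with a bacterial counterpart, also had its highest value in array 3 and read 8.64 and 8.59 against 8.67, 8.85 and 8.89, a difference of 0.19. MRPS18A, which carries a small-subunit name but sits in the large subunit in structures of the human particle, read 6.33 and 6.45 against 6.57, 6.96 and 6.58. MRPS10, a protein of the head of the small subunit, read 8.41 and 8.27 against 8.43, 8.85 and 8.43. MRPL58 encodes a peptidyl-tRNA hydrolase built into the large subunit and read 7.13 and 7.15 against 7.16, 7.53 and 7.39. In MRPS18A, MRPS10 and MRPL58 array 2 was again the highest and array 1 the closest to the controls, level with array 3 in MRPS10. Without array 2 the differences of MRPS18A, MRPS10 and MRPL58 were 0.19, 0.087 and 0.13, against 0.31, 0.23 and 0.22 with it.

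The members that read lower in every array labelled MondoA shRNA were MRPS30 and MRPL32. MRPS30, another protein with a small-subunit name that sits in the large subunit, read 7.05 and 7.07 against 6.79, 6.81 and 6.98, a difference of -0.20 ± 0.07 (SE, adjusted p = 0.833), and its unadjusted limma p of 0.053 was the lowest of the members. It differed from most members in that MondoA shRNA arrays 1 and 2 were within 0.02 of each other. MRPL32, a large-subunit protein that is trimmed on import by the mitochondrial m-AAA protease, read 7.50 and 7.56 against 7.23, 7.40 and 7.47, a difference of -0.17, or -0.097 without MondoA shRNA array 1. Its head-to-head neighbour PSMA2, a proteasome subunit gene, had a difference of 0.13 and did not share this order.

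**Figure D2:**
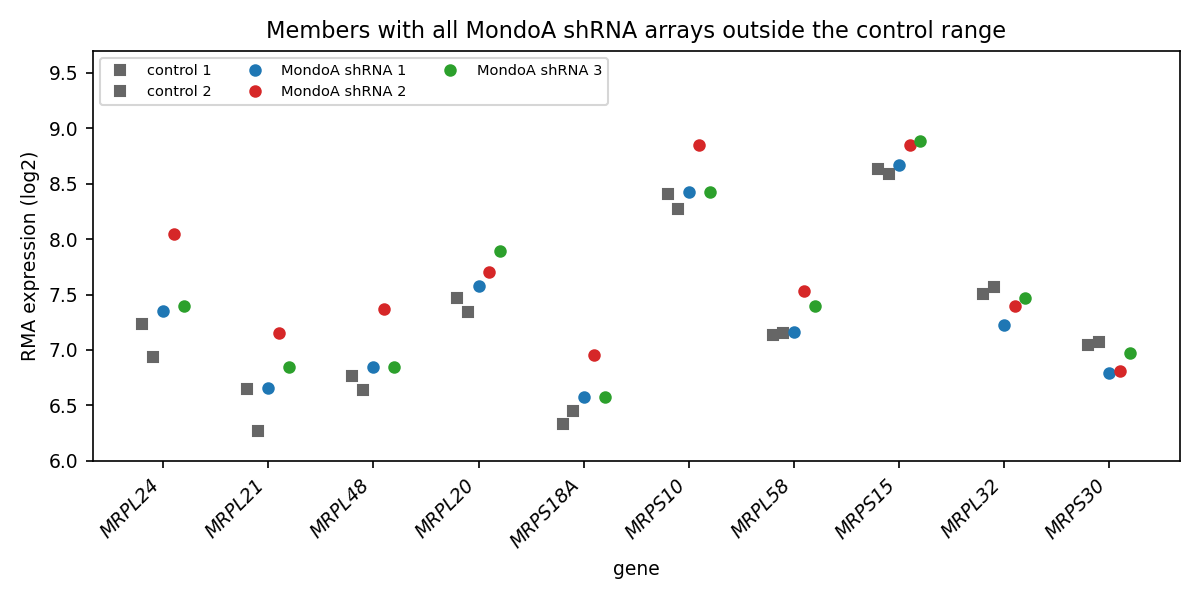
RMA expression (log2 axis, starting at 6) of the 10 members whose MondoA shRNA arrays (circles) all lay outside the control range (squares). MRPL24 spans the widest range and MRPS30 and MRPL32 are the genes with lower MondoA shRNA values.

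The clearest feature of the members was the spread among the MondoA shRNA clones, which was not particular to them. Over 14 mitochondrial translation factors the median of array 2 minus array 1 was larger, 0.35, while array 2 was the highest for 50%. Other mitochondrial gene lists are given further on. Array 2 was the highest of the 5 arrays for 47 of 73 members (64.4%), against 23.6% of all genes and 36.8% of brighter genes, and array 1 was the lowest for 32 of 73 (43.8%), against 22.2% and 35.3%. Both held together in 25 members (34.2%), against 8.90% of all genes and 15.9% of brighter genes. The median of array 2 minus array 1 was 0.29 over the members, 0.00 over all genes and 0.10 over brighter genes, and 57 of 73 members (78.1%, against 63.0% of brighter genes) were higher in array 2, 11 lower and 5 equal. The median absolute difference of a member was 0.05 between the controls, 0.33 between MondoA shRNA arrays 1 and 2, 0.14 between 1 and 3 and 0.23 between 2 and 3. Over brighter genes the same 4 values were 0.07, 0.18, 0.11 and 0.13. On the deposited scale the members were further apart than brighter genes in each pair of MondoA shRNA arrays and not in the control pair. As 1 array stands for each clone, a difference between clones and a difference between arrays cannot be told apart.

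The size of this spread depended on how the arrays were put on 1 scale. When the arrays were quantile normalised again over the 18417 genes, array 2 minus array 1 fell to a median of 0.13 over the members and to -0.03 over brighter genes, and 48 of 73 members (65.8%) were higher in array 2, against 44.6% of brighter genes. That step moves genes by level: MRPL11, deposited at 6.82 in all 5 arrays, then read -0.17 for array 2 minus array 1. The median absolute differences after it were 0.20 between arrays 1 and 2, 0.10 between 1 and 3 and 0.19 between 2 and 3 over the members, against 0.16, 0.10 and 0.12 over brighter genes, so that arrays 1 and 3 no longer differed more for members. With arrays centred on their medians instead, the member median was 0.31 and that of brighter genes 0.12. The signed median of the members stood above that of brighter genes on all 3 scales, a gap for which 1 array each allows no test, and the part of array quality in it was not tested.

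**Figure D3:**
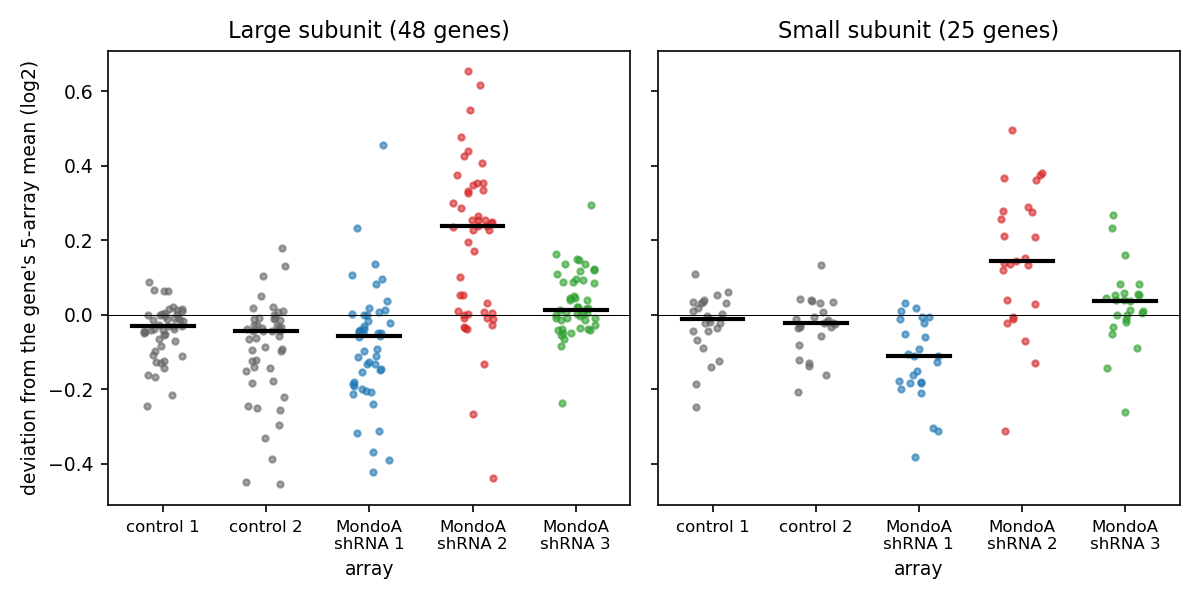
Deviation of each member from its own mean over the 5 arrays (log2), by array, for 48 large-subunit and 25 small-subunit genes. Points are genes and bars are medians. MondoA shRNA array 2 has medians of 0.24 and 0.14, and array 1 has medians of -0.06 and -0.11.

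The 4 members with the highest SD among MondoA shRNA arrays were MRPL36, which ran opposite to most and is described further on, and MRPS31, MRPL3 and MRPL45. MRPL3, which reaches the peptidyl transferase centre where peptide bonds form, read 9.38 and 9.01 against 9.21, 10.01 and 9.37. MRPL45, which ties the tunnel exit to the inner membrane, read 9.50 and 9.48 against 9.14, 9.94 and 9.50. MRPS31, a mitochondria-specific small-subunit protein, read 6.06 in both controls against 5.72, 6.52 and 5.77. In MRPL3, MRPL45 and MRPS31 array 2 exceeded array 1 by 0.79 to 0.81, while array 3 stayed near the controls in MRPL3 and MRPL45 and near array 1 in MRPS31. The group differences of MRPS31 (-0.05) and MRPL45 (0.04) had no settled sign: MRPS31 was 0.086 without MondoA shRNA array 1 and 0.064 without array 3, and MRPL45 was -0.17 without array 2. The MRPL3 difference of 0.33 was 0.090 without array 2.

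The same order, with array 1 lowest and array 2 highest, held for MRPS9 and MRPS14, proteins of the head of the small subunit, and for MRPL2, close to the peptidyl transferase centre. MRPS9 read 6.73 and 6.68 against 6.32, 7.06 and 6.71. MRPS14 read 6.87 and 6.65 against 6.50, 7.18 and 6.87. MRPL2 read 9.20 and 9.12 against 8.88, 9.61 and 9.20. In all 3 genes MondoA shRNA array 3 was close or equal to a control array.

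A smaller number went the other way. MRPL36, a short large-subunit protein of bacterial origin, read 9.69 and 10.01 against 10.36, 9.46 and 9.99, so that array 2 was the lowest and array 1 the highest. A second MRPL36 probe set read 7.38 in all 5 arrays and did not share this. The MRPL36 difference of 0.09 turned to -0.07 when control array 1 was left out and to -0.12 when MondoA shRNA array 1 was. MRPL41, a mitochondria-specific large-subunit protein, read 5.53 and 5.96 against 6.01, 5.51 and 5.87, with the controls nearly as far apart as the MondoA shRNA arrays. MRPS25, a mitochondria-specific small-subunit protein, read 6.98 and 7.01 against 6.98, 6.65 and 7.20, and MRPL10, of the stalk, read 6.81 and 6.76 against 6.94, 6.67 and 6.81. In these 4 genes array 2 was the lowest of all 5, the only members for which that held.

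**Figure D4:**
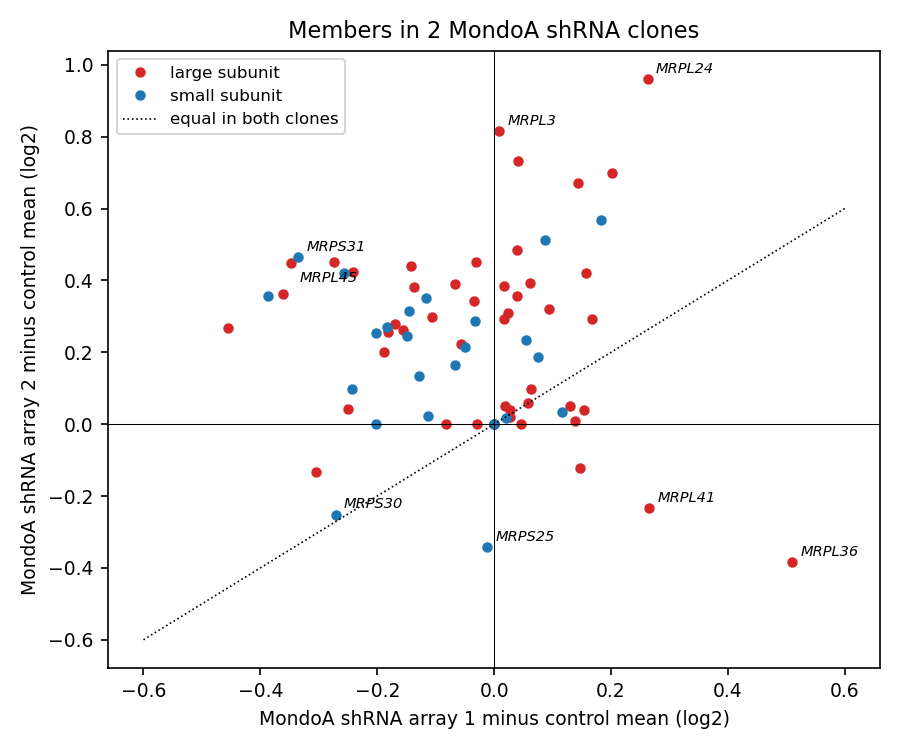
Each member's value in MondoA shRNA array 2 (vertical axis) against array 1 (horizontal axis), both minus the mean of the same 2 control arrays (log2), so the axes share their controls. Most points lie above the dotted line of equality, with MRPL36 and MRPL41 furthest below it.

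Large and small subunit were close to each other in the comparison of the groups. The median difference was 0.08 for the 48 large-subunit genes, 43 above 0 and 4 below, and 0.04 for the 25 small-subunit genes, 16 above and 9 below. The gap of 0.04 between these medians was smaller than the SD of 0.05 of the same gap between arrays of a group. It was 0.07 without MondoA shRNA array 1 and 0.06 without array 2, both above that SD. That SD describes single arrays and is not the error of the gap, so it does not show whether the subunits differ. Without MondoA shRNA array 2 the medians were 0.04 and -0.02, and without array 1 they were 0.16 and 0.09, so the small-subunit median turned with the clone left out. Moving MRPS30 and MRPS18A to the large subunit, where structures place them, left the medians at 0.08 and 0.04. Array 2 was the highest for 31 of 48 large-subunit (64.6%) and 16 of 25 small-subunit genes (64%). Array 1 was the lowest for 17 of 48 (35.4%) and 15 of 25 (60%), and its median against the control mean was 0.02 and -0.11. The difference between subunits in array 1 was not tested.

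Among the sites as listed here, the head of the small subunit had the largest median of array 2 minus array 1, 0.55 over MRPS7, MRPS9, MRPS10 and MRPS14. Around the peptidyl transferase centre it was 0.46 over 5 genes. The head list left out mitochondria-specific proteins, among them MRPS31 (0.80), MRPS35 (0.46) and MRPS33 (0.00), so this ranking holds for these lists only. The value was 0.42 over 8 genes around the tunnel exit, 0.37 over 7 genes of the central protuberance and 0.20 over 9 genes of the body and platform of the small subunit. The stalk, which recruits translation factors, had a median of 0.00 over 3 genes, 2 of them with tied values. MRPL11 was equal in all arrays, MRPL12 read 7.65 in both arrays 1 and 2, and MRPL10 ran the other way. Mitochondria-specific and bacterial-type proteins had medians of 0.40 (18 genes) and 0.28 (29 genes) in the large subunit and 0.26 (9 genes) and 0.30 (14 genes) in the small subunit. With the arrays quantile normalised again the same 4 medians were 0.24, 0.08, 0.08 and 0.15. The sites then stood at 0.33 (head), 0.24 (tunnel exit), 0.22 (peptidyl transferase centre), 0.17 (central protuberance), 0.07 (body and platform) and -0.22 (stalk). These sites hold few genes each and no test compares them.

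Members with and without an ETS core in a promoter window were set side by side, with no test of the difference. The median of array 2 minus array 1 was 0.32 over the 29 with a core and 0.33 over the 37 without, and the median group differences were 0.08 and 0.05. For the 9 members with an E-box the group median was 0.07, and for the 57 without it was also 0.07. A head-to-head neighbour, with promoter windows of opposite strands that overlap, was found for 16 of 66 members (24.2%) and 11.1% of protein-coding genes. MRPL46 and MRPS11 are such a pair, of the central protuberance and of the small-subunit platform. MRPL46 read 7.83 and 7.86 against 7.49, 8.21 and 7.99, and MRPS11 read 7.45 and 7.33 against 7.27, 7.74 and 7.47, both lowest in array 1 and highest in array 2. MRPS12, the decoding-site protein, read 6.32 and 6.48 against 6.52, 6.44 and 6.78, while its neighbour SARS2, the mitochondrial seryl-tRNA synthetase gene, read 6.22 and 6.21 against 6.21, 6.66 and 6.22, so this pair did not share an order.

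Genes of the mitochondrial ribosome that carry other names were described beside the members, together with the insertase gene OXA1L. CHCHD1, a small-subunit protein, read 5.44 and 5.62 against 5.49, 6.22 and 5.62. The GTP-binding small-subunit protein gene DAP3 read 8.09 in both controls against 7.92, 8.15 and 7.82, and the pentatricopeptide-repeat protein gene PTCD3 read 9.20 and 9.04 against 8.82, 9.25 and 9.09. GADD45GIP1, of the large subunit, read 7.33 and 7.53 against 7.56, 7.57 and 7.53, and OXA1L, the inner-membrane insertase that receives the new chains, read 9.26 in both controls against 9.18, 9.38 and 9.26. Array 2 was the highest in all 5 genes, in GADD45GIP1 by only 0.0065 over array 1, on the deposited scale, none of which passed in limma (adjusted p from 0.833 to 1.00). With the arrays quantile normalised again, 2 of the 5 were higher in array 2 than in array 1, CHCHD1 by 0.61 and PTCD3 by 0.20, and DAP3 (-0.021), OXA1L (-0.0054) and GADD45GIP1 (-0.19) were lower. The group difference of CHCHD1, 0.25, was 0.026 without MondoA shRNA array 2, that of DAP3, -0.12, was -0.051 without array 3, and that of GADD45GIP1, 0.13, was 0.028 without control array 1. The PTCD3 difference of -0.07 was 0.015 when control array 1 was left out and 0.050 when MondoA shRNA array 1 was, and the OXA1L difference of 0.01 was -0.044 without MondoA shRNA array 2.

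The genes that build and feed the particle had lower group medians than the members' 0.07, with no test of the difference. Of 28 measured genes for ribosome assembly and rRNA modification, 16 lay above and 11 below 0 with a median difference of 0.02. NSUN4, an rRNA methyltransferase, differed by 0.34, the pseudouridine synthase TRUB2 by 0.30 and the rRNA methyltransferase MRM3 by -0.12. With control array 2 left out NSUN4 stood at 0.19 and TRUB2 at 0.16, and with control array 1 left out MRM3 stood at -0.057. Of 14 translation factors, 9 lay above and 4 below 0 (median 0.04), among them the elongation factor genes TUFM at -0.13 and TSFM at 0.11 and the elongation factor relative GUF1 at -0.19. Without MondoA shRNA array 1 these were -0.053, 0.044 and -0.032. Of 22 genes for mitochondrial transcription and RNA handling, 12 lay above and 10 below 0 (median 0.02). TFB2M and TFAM, which start transcription of mitochondrial DNA, read 6.52 and 6.45 against 6.70, 7.10 and 6.88 for the former and 6.54 and 6.47 against 6.68, 6.77 and 6.59 for the latter, with no overlap between groups. Such a separation upward held for 2 of the 22 genes (9.09%), against 4.85% of all genes and 7.22% of brighter genes. Downward it held for 1, FASTK (4.55%), against 5.18% and 8.36%. TRMT10C, part of mitochondrial RNase P, read 5.71 and 5.40 against 5.71, 5.71 and 5.73. Its difference of 0.16 (limma adjusted p = 0.833) became 0.31 without control array 1 (limma adjusted p = 0.033), a fit with a single control array and MondoA shRNA values that were nearly tied. In the 5-array fit 0 genes of these 3 lists stood at an adjusted or unadjusted p under 0.05. The mitochondrial mRNAs themselves were not analysed here.

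Among 67 nuclear genes for respiratory chain and ATP synthase subunits, whose products assemble with those made by the mitochondrial ribosome, the median difference was 0.06, with 50 above and 16 below 0. SDHA, the flavoprotein subunit of complex II, which holds no mitochondrially encoded chain, read 9.93 and 9.86 against 9.78, 9.77 and 9.74 and was the only one at an unadjusted p under 0.05 (0.012, limma adjusted p = 0.833). The complex IV gene COX5B differed by 0.16 and the complex I gene NDUFV1 by -0.19, or -0.12 without control array 1. Among 64 genes with a cytosolic ribosomal protein symbol the median was 0.04, with 38 above and 25 below 0. At an unadjusted limma p under 0.05 stood 3 of the 64, all higher, RPS3A at 0.05, RPL35 at 0.21 and RPL10A at 0.20. Over all genes the share was 3.73%, 1.55% higher and 2.18% lower.

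These lists separated more in the clone pattern than in the group comparison. Array 2 minus array 1 had a median of 0.35 for translation factors, 0.22 for respiratory chain and ATP synthase subunits, 0.19 for transcription and RNA handling, 0.15 for assembly and 0.11 for cytosolic ribosomal proteins, against 0.30 and 0.26 for the large and small mitochondrial subunits. With the arrays quantile normalised again, the medians were 0.27, 0.05, 0.03, 0.06 and -0.06 in the same order, against 0.13 for both mitochondrial subunits. The 5 genes under other names went from 0.23 to -0.0054. The second value is that of OXA1L itself, an insertase rather than a ribosomal protein. As deposited, array 2 exceeded array 1 in 85.7% of translation factors, 79.1% of respiratory chain and ATP synthase genes and 75% of assembly genes (78.1% of members). The share was 72.7% for transcription and RNA handling and 59.4% for cytosolic ribosomal proteins. Array 1 lowest with array 2 highest held for 42.9%, 26.9%, 32.1%, 13.6% and 18.8% of these lists in turn (34.2% of members). The medians of the MRPL and MRPS genes stayed above 0 on both scales, as did those of the other mitochondrial lists named here. Those of cytosolic ribosomal proteins and of the 5 genes under other names changed sign. The differences between lists were not tested.

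**Figure D5:**
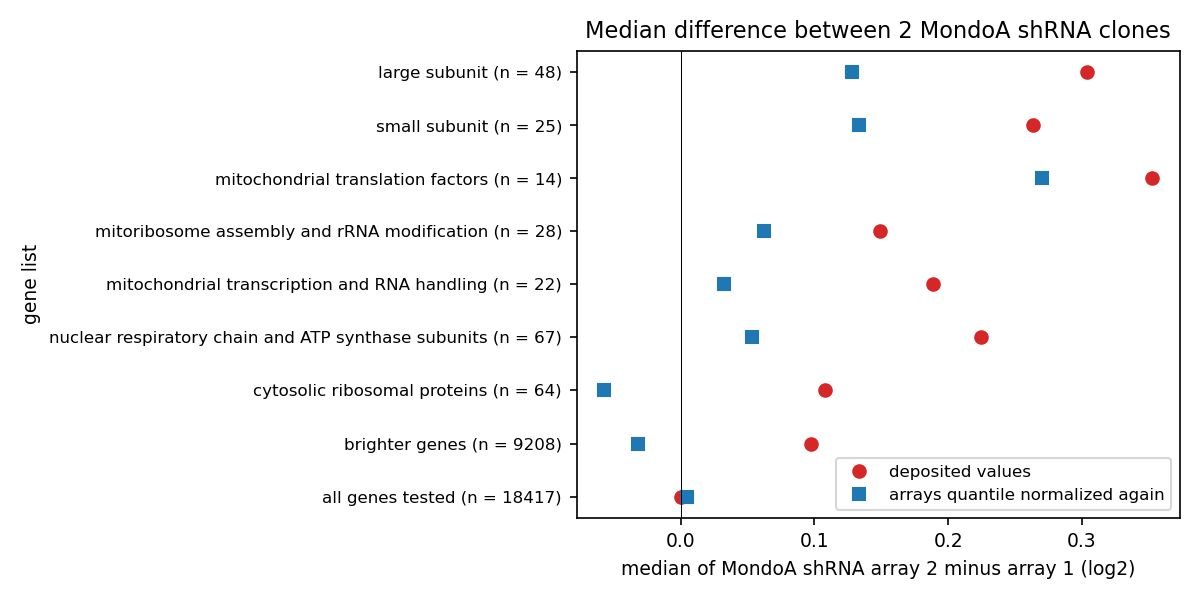
Median of MondoA shRNA array 2 minus array 1 (log2) for 9 gene lists, from the deposited values (red circles) and after the arrays were quantile normalised again (blue squares). The mitochondrial subunits lie at 0.30 and 0.26 as deposited and at 0.13 on the second scale, and the cytosolic ribosomal proteins at 0.11 and -0.06.

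The precision of the single values is limited by the number of arrays and by RMA. Of the 73 members, 16 had the same value in 3 or more arrays, and 30 (41.1%) had no tied value, against 23.4% of all genes and 37.7% of brighter genes. MRPL11 was the only member with 5 equal values. MRPL20 and MRPS18B each had more than 1 probe set with identical values, which were counted once.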

How the data were processed

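Total RNA (200 ng per clone) was hybridised to 5 arrays. The authors summarised probes with RMA in Affymetrix Expression Console 1.1, per the submitters' processing notes, and the deposited values were taken as log2. The log base, the array dates and the genome build are not given in the sources used here. RMA equalises arrays and can return identical values for several arrays. Of 33297 probe sets, 19460 had 1 symbol in the platform annotation, and 19429 of these matched RefSeq (GRCh38.p14) by Entrez number. The brightest probe set per gene was kept.

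All 18417 genes were fitted in limma 3.58.1 (R 4.3.3) as MondoA shRNA minus control shRNA, two-sided, with Benjamini-Hochberg adjustment. P-values measure the spread between clones, each with 1 array. Quantile normalisation was repeated over these genes as an alternative. On simulated data the limma step called 61.6% of changes of 1 log2 unit and 93.8% of changes of 3 log2 units among 18417 genes. The changed genes, 200 per simulation, were drawn from all 18417. The simulated noise was normal with the same SD in both groups, while the observed median SD was 0.03 in controls and 0.08 under MondoA shRNA. The 1786 genes equal in all 5 arrays were simulated without noise, so the rates may be too high for these data. The rate for members, whose median SE was 0.14 against 0.07 over all genes, was not simulated. Named genes were all members outside the control range, those with the highest spread among MondoA shRNA arrays, both extremes of each subunit, and up to 3 per pathway list; other names were chosen after their values were seen. Members and lists were chosen with earlier results of these data known, and sites within the particle were assigned from textbook knowledge. The replicate numbers link no clones and were not used as pairs.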

Additional observations from a re-analysis of the deposited data

How the results depend on the processing

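Over 13 alternative fits, 0 members passed an adjusted p under 0.05 in any. At an unadjusted limma p under 0.05 stood 0 members as reported. With the arrays quantile normalised again there were 8, all higher (11.0% of members, 5.99% of all genes). There were 3 with array weights (4.11% and 6.86%), 1 with arrays centred (1.37% and 4.27%) and 1 among brighter genes (1.43% and 6.46%). Among genes without tied values, a choice made after seeing the data, there were 2 of 30 members tested (6.67% and 12.8%). The fits that omit a MondoA shRNA array gave 1 to 5, with 5 without array 1 (6.85% and 3.84%). The count over all genes, 0 as reported, was 60 among genes free of ties, 3 in the fit lacking moderation, 2 with quantile normalisation and 2 with centring; fits that omit an array gave 0 to 752. With a replicate block, which pairs clones that share only a number and sets MondoA shRNA array 3 aside, 3 members stood at an unadjusted p under 0.05, MLXIP was 0.027 and MRPS31 0.064. The deviations of clones numbered 1 and 2 correlated at -0.275 between the groups, across genes. The subunit medians kept within their spread in all alternatives and ran from 0.036 to 0.163 (large) and -0.022 to 0.094 (small) in the fits that omit an array. Array 2 minus array 1 had a member median of 0.133 with quantile normalisation, an alternative chosen after seeing the data for this value. OXA1L turned to -0.027 with quantile normalisation. In the fits that omit an array, MLXIP ran from -0.065 to 0.027, MRPL36 from -0.120 to 0.327, MRPS31 from -0.314 to 0.086, MRPL45 from -0.170 to 0.227, OXA1L from -0.044 to 0.060 and PTCD3 from -0.166 to 0.050. The cause was not tested. Signal over background was not assessed. The unadjusted 95% interval of a typical member reached 0.40 to each side. In simulated data 61.6% of changes of 1 log2 unit were called after adjustment, among genes drawn from all 18417 rather than from the members. That simulation used noise of the same SD in both groups, unlike the data.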
